A study of Homo sapiens with 4 samples.

Results

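The regions described here are clusters of ADAR-bound RNA inside very long genes. A cluster is an interval in which the authors' peak caller found reads. A cluster was included where its midpoint fell in exactly 1 RefSeq gene span, where that gene is protein-coding and longer than 300 kb, and where the midpoint lay more than 3 kb from both gene ends. RefSeq holds 773 such genes, with a median length of 450 kb and RBFOX1, a neuronal splicing factor gene, as the longest at 2474 kb. The rule selected 45114 of the 534161 clusters of replicate 1 (8.45%) in 646 genes. It selected 11051 of the 155848 clusters of replicate 2 (7.09%) in 457 genes. In the authors' list of peaks combined over both replicates, called the reproducible list here, it selected 72 of 1717 peaks (4.19%) in 24 genes. A second gene span at the midpoint kept out a further 4888, 1161 and 8 intervals of the replicate 1, replicate 2 and reproducible lists.

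The assay was eCLIP, in which RNA is crosslinked to protein with ultraviolet light, trimmed with RNase I and recovered with an antibody. Libraries of RNA recovered with anti-ADAR1 (IP, 2 libraries) were set against libraries of the starting RNA (input, 2 libraries), numbered as replicates 1 and 2. All came from untreated K562 cells, a human leukaemia line that the labels give as lymphoblast. The lists hold bound intervals and no expression values, so cell type markers could not be checked, and the RNA level of each gene was not analysed here.

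ADAR1 converts adenosine to inosine in double-stranded RNA. Much of the double-stranded RNA in human transcripts is formed by repeat elements in opposite orientation, and most of these lie in introns. A very long gene is nearly all intron, and its polymerase takes hours to cross it, so a nascent transcript carries intron sequence for a long time before splicing ends. The data hold gene spans only, so intron and exon were not assigned, and nucleotide sequences of the clusters are not given because no genome was used.

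Each cluster carries the authors' log2 fold of IP over input and the −log10 of their p-value. A cluster is called enriched below where its log2 fold and its −log10 p are both 3 or more. These are the authors' own values per cluster, and with 1 list per replicate they allow no test across samples. Read numbers were recovered from the folds, and IP depth was 3.33 times input depth in replicate 1 and 0.553 times input depth in replicate 2. One IP read therefore counts for more in the fold of replicate 2, and the median log2 fold in long gene interiors was −0.15 in replicate 1 and 1.85 in replicate 2. Enriched clusters in long genes rested on a median of 72.5 IP reads in replicate 1 and 18 in replicate 2. The denominator was 1 input read in 49.5% of them in replicate 1 and 33.7% in replicate 2. Since 1 is the lowest input value in either list, 0 and 1 input reads cannot be told apart there.

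Long gene interiors held a smaller share of enriched clusters than the rest of the lists in both replicates. In replicate 1, 386 of 45114 interior clusters were enriched (0.856%, exact 95% binomial interval 0.773 to 0.945%), against 1.39% of all clusters and 1.44% of those outside long gene interiors. In replicate 2, 1257 of 11051 were enriched (11.4%, interval 10.8 to 12%), against 12.8% of all clusters and 12.9% of those outside. The difference was −0.58 percentage points in replicate 1 and −1.56 in replicate 2. All such intervals cover counting error only and treat clusters as independent, which neighbours in 1 transcript are not.

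The most similar regions are interiors of genes of 100 to 300 kb, chosen by the same rule. In replicate 2, 11.4% of clusters were enriched in genes over 300 kb, against 13.9% (interval 13.5 to 14.2%) in genes of 100 to 300 kb. In replicate 1 the shares were 0.856% and 0.997% (interval 0.946 to 1.05%), a difference of −0.142 percentage points. That small difference depended on how clusters were counted. It was 0.0834 percentage points the other way where clusters with a denominator of 1 were left out, and 0.0168 where bases were counted in place of clusters. Without GSE1 and MAD1L1, 2 genes described below, the replicate 1 share in long genes was 0.487% and the difference was −0.511 percentage points. Replicate 2 stayed between −1.27 and −3.41 percentage points under every alternative tried for it.

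**Figure D1:**
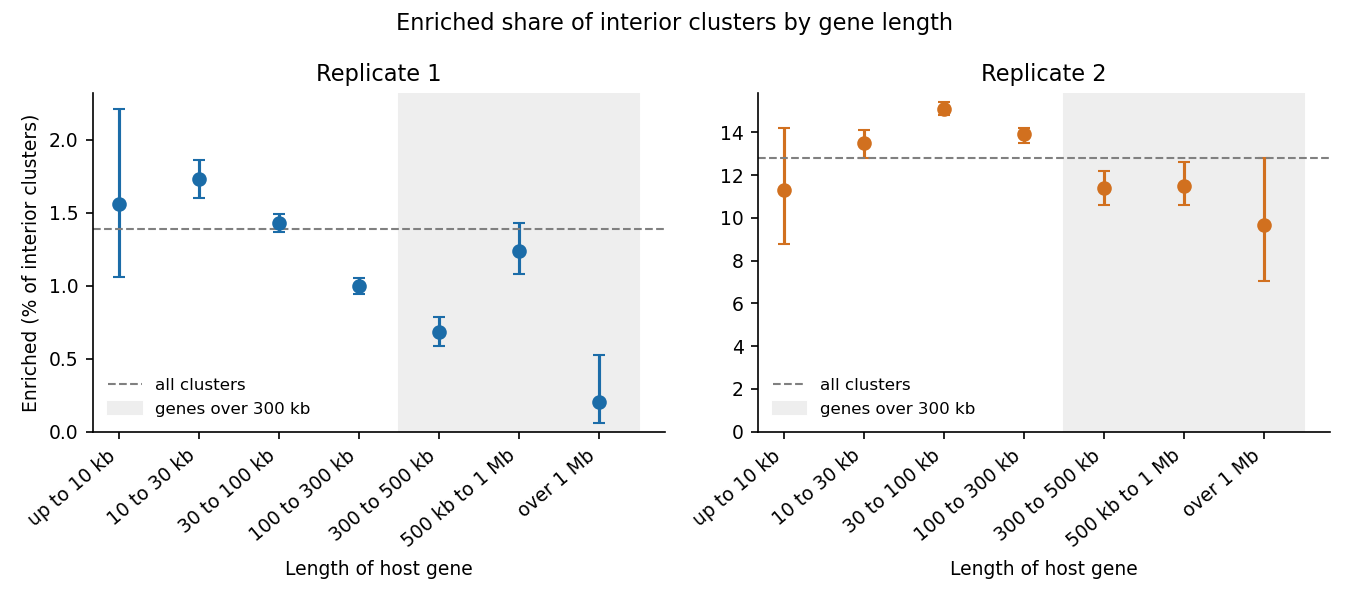
Share of interior clusters that were enriched (%), by length of the host gene from short to long, in each replicate. Points are shares and bars are exact 95% binomial intervals. The dashed line is the share among all clusters and the grey field marks genes over 300 kb. In replicate 1 the share was 0.679% at 300 to 500 kb, 1.24% at 500 kb to 1 Mb and 0.204% over 1 Mb. GSE1 alone held 125 of the 196 enriched replicate 1 clusters at 500 kb to 1 Mb, and MAD1L1 held 48 of the 186 at 300 to 500 kb.

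Clusters were also sparse along the length of these genes. Genes over 300 kb held 114 clusters per Mb in replicate 1 and 27.9 in replicate 2, against 389 and 113 per Mb in genes of 100 to 300 kb. Enriched clusters numbered 0.975 per Mb in replicate 1 and 3.18 in replicate 2, against 3.88 and 15.7 per Mb in genes of 100 to 300 kb. Reproducible peaks numbered 0.182 per Mb, against 1.2 per Mb at 100 to 300 kb and 2.55 per Mb at 30 to 100 kb. Within the class, enriched clusters per Mb in replicate 1 numbered 1.18 at 300 to 500 kb, 1.31 at 500 kb to 1 Mb and 0.0454 over 1 Mb. They numbered 4.75, 3.11 and 0.477 in replicate 2. The replicate 1 value at 500 kb to 1 Mb rests mostly on GSE1, which held 125 of the 196 enriched clusters there. MAD1L1 held 48 of the 186 at 300 to 500 kb. Genes of 300 to 500 kb held 0.266 reproducible peaks per Mb, genes of 500 kb to 1 Mb held 0.2, and the 69 genes over 1 Mb held 0. In genes over 1 Mb, replicate 1 had 4 enriched clusters among 1960 and replicate 2 had 42 among 435. RBFOX1 had 12 clusters in replicate 1 and 5 in replicate 2, of which 1, in replicate 2, was enriched. How much of this density follows RNA level was not tested.

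The share of long genes with an enriched cluster differed widely between the replicates. Of the 646 genes with a cluster in replicate 1, 68 had an enriched one (10.5%), against 14.1% of protein-coding genes of any length with an interior cluster. Of the 457 genes with a cluster in replicate 2, 190 had an enriched one (41.6%), against 46.5% of genes of any length. Both replicates had an enriched cluster in 62 genes, which are 91.2% of the replicate 1 genes and 32.6% of the replicate 2 genes. Of these 62 genes, 22 also held a reproducible peak. No cluster at all was found in 111 long genes in either replicate.

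The replicates differed in how evenly enriched clusters were spread over genes. In replicate 1, GSE1 and MAD1L1 held 173 of 386 enriched clusters (44.8%), and the leading 10 genes held 62.7%. In replicate 2 the leading 10 genes held 28.5%, and the counts of the foremost genes lay close together, at 43 and 41. GSE1, a chromatin-associated coiled-coil protein, had 125 enriched of 819 clusters in replicate 1 and 37 of 377 in replicate 2. MAD1L1, the spindle checkpoint protein MAD1, had 48 enriched of 516 clusters in replicate 1 and 4 of 100 in replicate 2. Each had a median log2 fold of 2.07 over its replicate 1 clusters, enriched or not, while the median of all long gene interiors in that replicate was −0.15. CUX1, a homeobox transcription factor, had 5 enriched of 581 clusters in replicate 1 (0.861%) and 43 of 284 in replicate 2 (15.1%). The shares in all long gene interiors were 0.856% and 11.4%, and without GSE1 and MAD1L1 they were 0.487% and 11.5%.

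**Figure D2:**
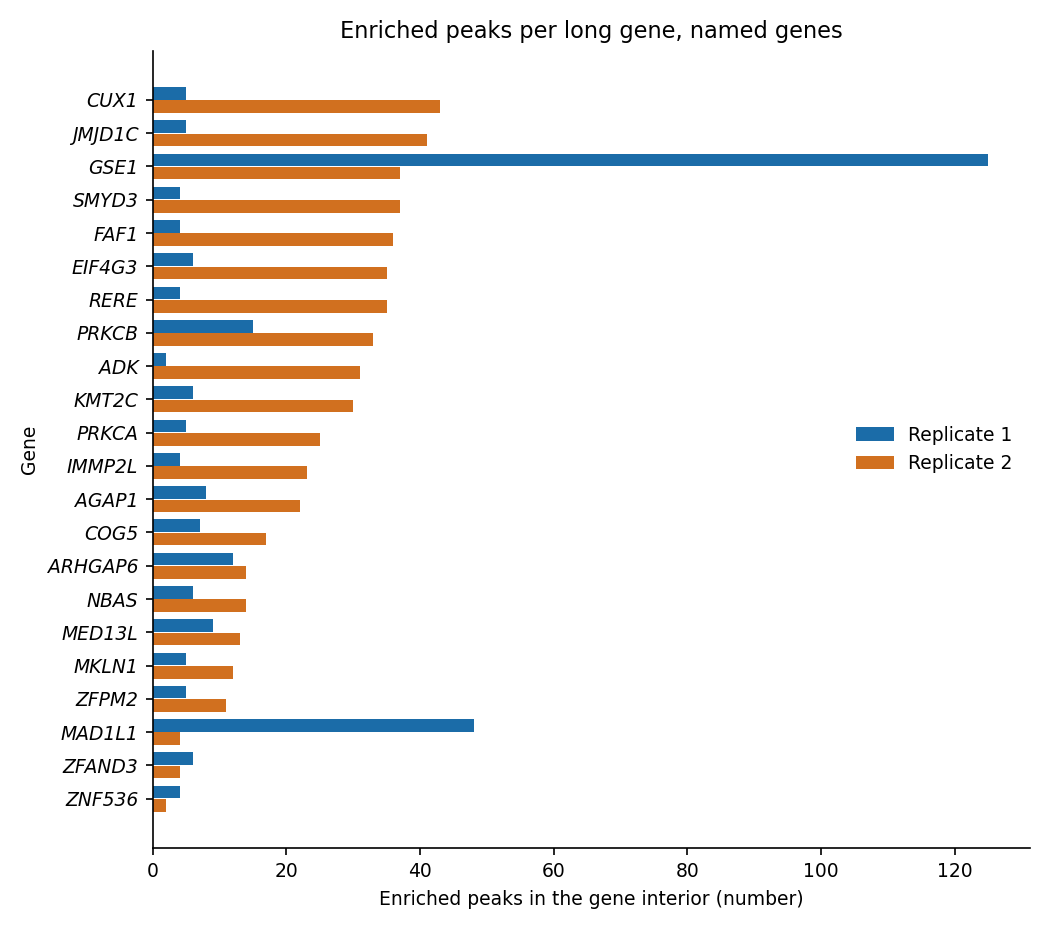
Number of enriched clusters in the interior of each of the 22 named long genes, with replicate 1 above replicate 2 for each gene. GSE1 and MAD1L1 lead in replicate 1 with 125 and 48, while CUX1 and JMJD1C lead in replicate 2 with 43 and 41.

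In GSE1 and MAD1L1 the replicate 1 enrichment was densest beyond 90% of gene length. That end of GSE1 held 62 enriched of 166 clusters in replicate 1, with a median log2 fold of 2.61. In replicate 2 the same stretch held 5 enriched of 51 clusters, with a median of 1.51. That end of MAD1L1 held 25 enriched of 58 clusters in replicate 1, with a median of 2.83, and 0 of 14 in replicate 2, with a median of 1.33. Leaving both genes out moved the replicate 1 count of enriched clusters to 213 and the replicate 2 count to 1216. Whether the stretches are exonic was not tested.

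The 72 reproducible peaks were short intervals, with a median width of 43 bases, against 35 bases in the other reproducible peaks. Touching peaks merged into 45 sites, and peaks within 1 kb of each other into 33 loci with a median span of 87 bases and a longest span of 825 bases. Their deposited log2 folds lay between 3.01 and 6.64 with a median of 4.73, against a median of 4.61 in the other reproducible peaks. Of the 72 peaks, 58 (80.6%) overlapped an enriched cluster in both replicates, against 80.2% of the other reproducible peaks. All 72 overlapped an enriched cluster of replicate 2, and 58 overlapped one of replicate 1. The overlapping cluster had the higher log2 fold in replicate 2 for 70 of the 72 peaks, with medians of 3.70 in replicate 1 and 5.47 in replicate 2. The lowest log2 fold in the whole reproducible list was 3.00, and many of its folds lay midway between the 2 replicates. At DLGAP1 the fold was 3.01, with 2.05 in replicate 1 and 3.97 in replicate 2. For such peaks the higher replicate fold must be at least 3, so the overlap of all 72 with replicate 2 is partly fixed by selection.

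**Figure D3:**
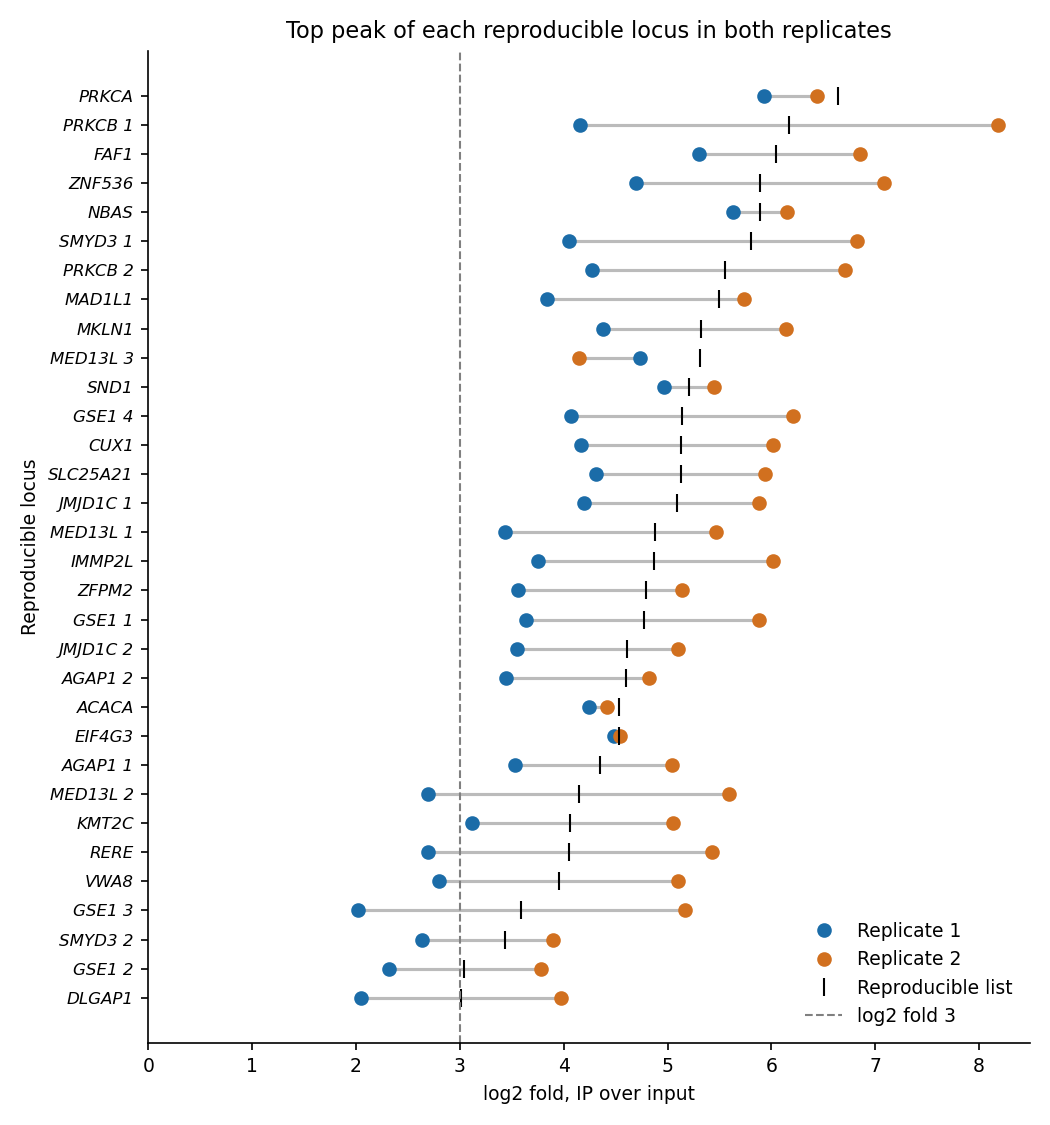
log2 fold of IP over input at 32 of the 33 reproducible loci, ordered by the highest fold in the reproducible list (black tick). Circles give the cluster of each replicate that overlaps that highest peak. The dashed line marks log2 fold 3, and numbers after a gene name count its loci. The replicate 1 value lies below 3 at 7 loci, while all replicate 2 values lie above it. The reproducible list starts at a log2 fold of 3.00, which partly fixes this pattern.

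The highest folds were found in genes of protein kinase C. PRKCA, a calcium-dependent isoform, had 3 touching reproducible peaks on chromosome 17 between 66328110 and 66328210 on the plus strand (GRCh38), 25.6 kb from the gene start. The highest reached a log2 fold of 6.64 in the reproducible list. The cluster under it had 406 IP reads over 2 input reads in replicate 1 and 96 over 2 in replicate 2, so both replicates showed it with many IP reads. PRKCB, the beta isoform, had 5 reproducible peaks at 2 loci, 39.6 kb and 88.1 kb from its start. At the first locus, chromosome 16 positions 23875511 to 23875803, the overlapping clusters had 179 IP reads over 3 input reads in replicate 1 and 160 over 1 in replicate 2. PRKCB as a whole had 15 enriched of 486 clusters in replicate 1 and 33 of 216 in replicate 2, and 14 of the 15 were overlapped by an enriched cluster of replicate 2.

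In ZNF536, a zinc finger transcriptional regulator best known from neurons, replicate 1 found 5 clusters and replicate 2 found 2 in the whole interior. Of these, 4 and 2 were enriched, and all the enriched ones lay within 22 bases on chromosome 19 between 30313237 and 30313258, 87.7 kb from the gene start. The highest peak there had 259 IP reads over 3 input reads in replicate 1 and 75 over 1 in replicate 2. The remaining replicate 1 cluster had a log2 fold of −0.15, so the gene was nearly empty apart from 1 narrow site.

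NBAS, which acts in Golgi-to-ER transport and in nonsense-mediated decay, held 6 reproducible peaks in 1 locus on chromosome 2 between 15519487 and 15520245, 41.7 kb from its start on the minus strand. All 6 of its enriched replicate 1 clusters were overlapped by an enriched replicate 2 cluster, and 6 of its 14 enriched replicate 2 clusters by an enriched replicate 1 cluster. The highest peak had 329 IP reads over 2 input reads in replicate 1 and 118 over 3 in replicate 2. Elsewhere in NBAS the highest log2 fold was 2.35 in replicate 1 and 5.81 in replicate 2. MKLN1, muskelin of the CTLH ubiquitin ligase complex, had 3 touching peaks 318 kb from its start, at 82.3% of its length, with log2 folds of 4.38 in replicate 1 and 6.14 in replicate 2. FAF1, a ubiquitin-binding adaptor of VCP, had 3 peaks 25.6 kb from its start, with 131 IP reads over 1 input read at its highest replicate 1 cluster.

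Among regulators of chromatin and transcription, MED13L, which belongs to the kinase module of Mediator, had 9 reproducible peaks, the most of any long gene. They formed 3 loci at 99.8, 111 and 123 kb from the gene start on chromosome 12. The reproducible log2 folds reached 5.31, 4.15 and 4.88 at these loci. At the middle locus the overlapping replicate 1 cluster had 86 IP reads over 4 input reads and a log2 fold of 2.69, below the threshold, while replicate 2 had 80 over 3 and 5.59. MED13L had 9 enriched of 449 clusters in replicate 1 and 13 of 145 in replicate 2.

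JMJD1C, a jumonji domain protein, had 5 enriched of 421 clusters in replicate 1 and 41 of 180 in replicate 2, with reproducible peaks at 63 kb and 187 kb. RERE, an atrophin-family corepressor, had 4 of 575 in replicate 1 and 35 of 215 in replicate 2, and its single locus had a log2 fold of 2.69 in replicate 1 and 5.43 in replicate 2. KMT2C, a histone H3 lysine 4 methyltransferase, had 6 of 431 in replicate 1 and 30 of 168 in replicate 2. SMYD3, a lysine methyltransferase, had 4 of 842 in replicate 1 and 37 of 253 in replicate 2, with loci at 335 kb and 418 kb. In CUX1 the 1 reproducible peak lay on chromosome 7 between 101860868 and 101860962, 44.9 kb from the start, with 60 IP reads over 1 input read in replicate 1 and 72 over 2 in replicate 2. ZFPM2, a cofactor of GATA factors, had 4 reproducible peaks in 1 locus 41.2 kb from its start, with 5 enriched of 475 clusters in replicate 1 and 11 of 90 in replicate 2.

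GSE1 had 6 reproducible peaks at 4 loci, and 1 of these loci lay in the dense replicate 1 stretch beyond 90% of its length. The loci lay 54.4, 299, 428 and 491 kb from the gene start. At 299 kb and 428 kb the replicate 1 log2 folds were 2.32 and 2.02 and the replicate 2 log2 folds were 3.78 and 5.17. Only 6 of its 125 enriched replicate 1 clusters were overlapped by an enriched replicate 2 cluster. In MAD1L1 the figure was 3 of 48, all at its 1 reproducible locus 341 kb from the start, with 95 IP reads over 2 input reads in replicate 1 and 89 over 3 in replicate 2.

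The remaining named genes serve signalling, metabolism, translation and trafficking. AGAP1, a GTPase-activating protein for Arf, had 3 reproducible peaks at 25.3 kb and 155 kb and had 8 enriched of 494 clusters in replicate 1, all in the first 33.3% of the gene. IMMP2L, a mitochondrial inner membrane peptidase subunit, had 3 touching peaks 77.6 kb from its start, with 134 IP reads over 3 input reads in replicate 1 and 144 over 4 in replicate 2. EIF4G3, a scaffold of translation initiation, had 6 enriched of 260 clusters in replicate 1, each overlapped by an enriched replicate 2 cluster, and 35 of 148 in replicate 2. SND1, a Tudor domain nuclease that binds inosine-containing RNA, had 1 reproducible peak at 99% of its length, with 208 IP reads over 2 input reads in replicate 1 and 97 over 4 in replicate 2. It was not named by the rule and was chosen for its known tie to inosine.

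A few genes were enriched in both replicates without a reproducible peak, as 40 genes were in all. ARHGAP6, a GTPase-activating protein, had 12 enriched of 223 clusters in replicate 1 and 14 of 54 in replicate 2. The replicate 1 clusters lay mostly between 50 and 60% of its length, which held 7 of the 12, and the replicate 2 clusters between 80 and 90%, which held 9 of the 14. COG5, of the Golgi tethering complex, had 7 of 343 in replicate 1 and 17 of 92 in replicate 2, and 5 of its 7 replicate 1 clusters were overlapped by an enriched one in replicate 2. ZFAND3, a zinc finger protein, had 6 of 277 in replicate 1 and 4 of 83 in replicate 2. ADK, adenosine kinase, had 2 of 435 in replicate 1 and 31 of 171 in replicate 2.

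**Figure D4:**
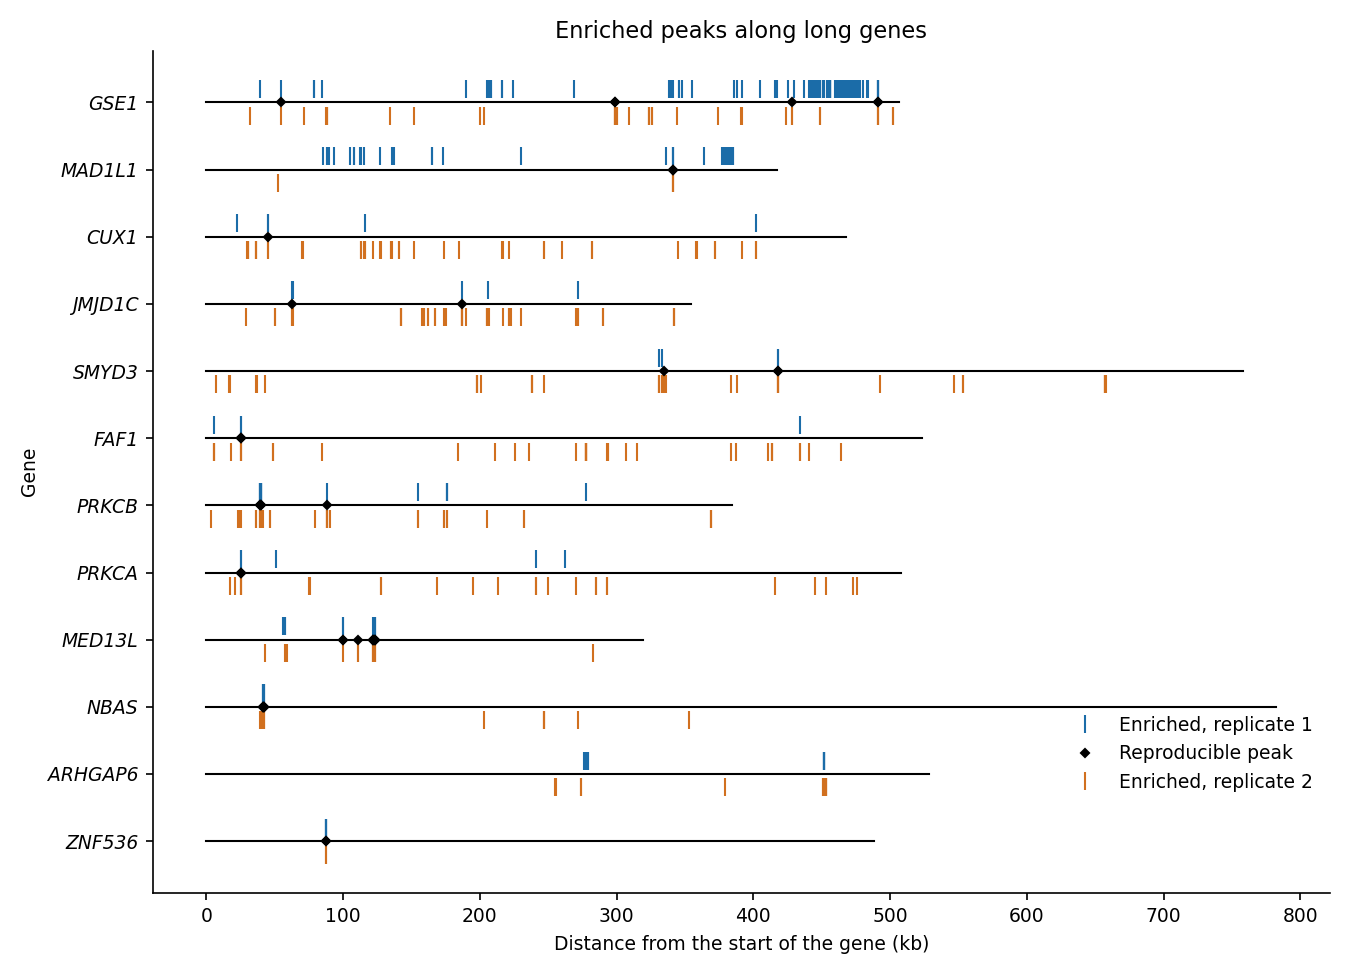
Position of enriched clusters along 12 long genes, as distance from the gene start (kb), with replicate 1 ticks above the line of each gene, replicate 2 ticks below it and reproducible peaks as diamonds. Replicate 1 ticks crowd the end of GSE1 and MAD1L1, and the ticks of ZNF536 stand at 1 place 87.7 kb from its start.

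Enriched clusters lay nearer the gene start than other clusters in both replicates once GSE1 and MAD1L1 were set aside. In replicate 2 the median position was 33.7% of gene length for enriched clusters and 37.3% for the others. In replicate 1 the medians were 52.9% and 38.7%, and without GSE1 and MAD1L1 they were 27.3% and 38.1%. Without those genes the first 33.3% of gene length held 56.8% of enriched and 44.9% of other clusters in replicate 1, and 50.5% and 46.8% in replicate 2. Counting each gene once by its own median gave 31% for enriched and 40.2% for other clusters in replicate 1, and 32.6% and 38.9% in replicate 2. These medians came from 68 and 591 genes in replicate 1 and 189 and 419 in replicate 2. They therefore do not compare clusters within the same genes. Of the 33 reproducible loci, 21 lay in the first 33.3% of the gene, 6 in the middle and 6 in the last 33.3%. Even so, 14 loci lay more than 100 kb from the gene start.

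**Figure D5:**
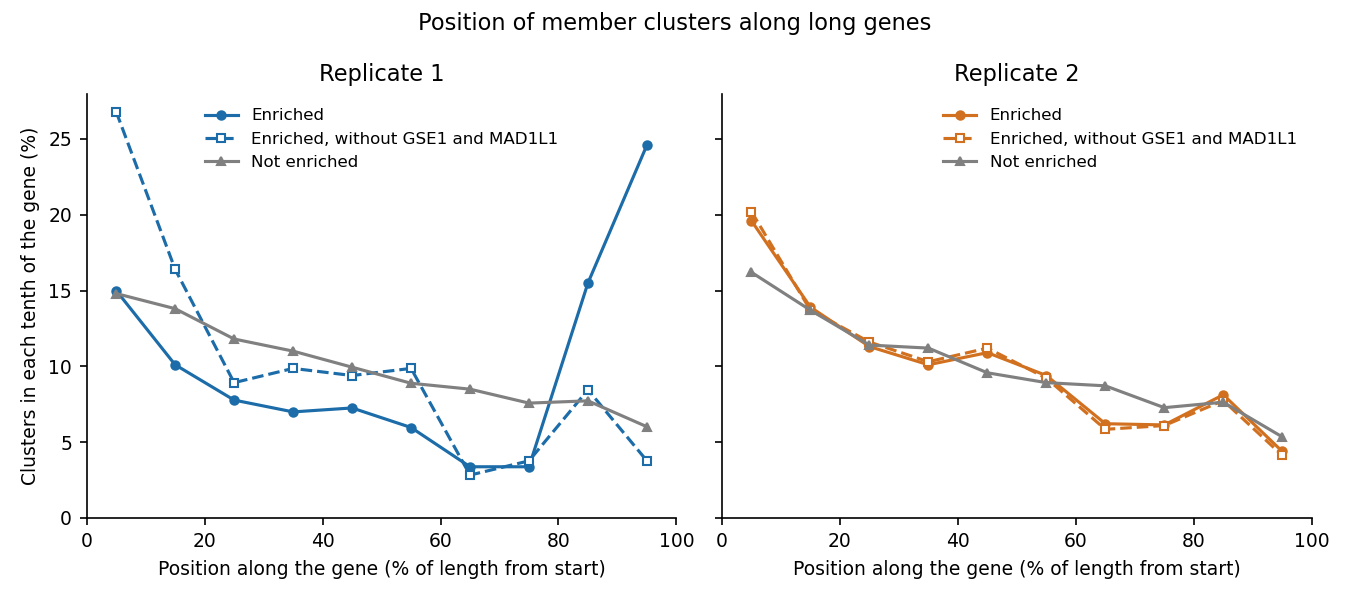
Share of member clusters in each 10% of gene length (%), from start to end, for enriched clusters, enriched clusters without GSE1 and MAD1L1, and clusters that were not enriched. In replicate 1 the last 10% of length holds 24.6% of enriched clusters with those 2 genes and 3.76% without them, while in replicate 2 it holds 4.38% and 4.12%.

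The clusters followed the direction of transcription. Where RefSeq promoters give the strand, 99.4% of enriched clusters lay on the gene's strand in both replicates (exact interval 98 to 99.9% in replicate 1 and 98.8 to 99.8% in replicate 2), as did 99.6% and 99.7% of all clusters. RefSeq gives the strand for the genes of 63 of the 72 reproducible peaks, and 61 of the 63 lay on it. The 2 others lay in VWA8, a mitochondrial AAA ATPase, on chromosome 13 between 41573684 and 41573922, at 98.2% of its length. The cluster under the higher of them had 116 IP reads over 5 input reads in replicate 1, with a log2 fold of 2.80, and 57 over 3 in replicate 2, with a log2 fold of 5.10.

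The replicates shared fewer enriched clusters in long genes than in genes of 100 to 300 kb when replicate 1 was taken as the base. Of its 386 enriched long gene clusters, 153 (39.6%, interval 34.7 to 44.7%) were overlapped on the same strand by an enriched replicate 2 cluster. The share was 59.3% at 100 to 300 kb and 42% among all enriched clusters outside long gene interiors, which lies within the long gene interval. Without GSE1 and MAD1L1 the long gene share was 67.6%, so these 2 genes set its side of the comparison. Of the 1257 enriched replicate 2 clusters, 145 (11.5%, interval 9.82 to 13.4%) were overlapped by an enriched replicate 1 cluster, against 13.5% at 100 to 300 kb and 14.2% outside long gene interiors. A replicate 1 cluster of any fold lay under 89.5% of the 1257.

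Enriched clusters lay close to one another. Another enriched cluster of the same gene stood within 1 kb of 72.3% of them in replicate 1 and 58% in replicate 2, against 67.6% and 62.4% at 100 to 300 kb. After touching clusters were merged into sites, the shares were 50.2% and 37.1%, against 33.7% and 43.8%. With all genes counted, the order of the length classes thus differed between the replicates. Without GSE1 and MAD1L1 the unmerged long gene shares were 64.8% in replicate 1 and 57.6% in replicate 2. Both lay below those at 100 to 300 kb, so the replicate 1 order rested on these 2 genes before merging. No value for merged sites without them is given here.

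Gene lists written from general knowledge were used to group the long genes by function, and their counts stand beside those of all 773 long genes, of which 8.8% had an enriched cluster in replicate 1 and 24.6% in replicate 2. Over all long genes, 0.856% of clusters were enriched in replicate 1 and 11.4% in replicate 2. Without GSE1 and MAD1L1 these shares were 0.487% and 11.5%. Of 41 transcription and chromatin regulators, 9 had one in replicate 1 (22%) and 17 in replicate 2 (41.5%), and 5 held 18 of the reproducible peaks. Of their clusters, 0.685% were enriched in replicate 1 and 12.6% in replicate 2. The replicate 1 share lay below the 0.856% of all long genes. It lay above the 0.487% found without GSE1 and MAD1L1, neither of which is in this list. CUX1, RERE, KMT2C and MED13L had the most enriched clusters of the list. It does not hold GSE1, JMJD1C or SMYD3, which are described above. GSE1 alone had 125 enriched of 819 clusters in replicate 1, so the cluster share and the leading genes depend on which genes were listed. Of 8 haematopoietic and erythroid genes, 3 were enriched in replicate 1 and 4 in replicate 2, with 145 enriched replicate 1 clusters, most of them in GSE1, and cluster shares of 6% in replicate 1 and 12.2% in replicate 2. Of 33 regulators and effectors of small GTPases, 6 were enriched in replicate 1 and 12 in replicate 2, led by AGAP1. The cluster shares of 0.871% and 11.5% were close to those of all long genes. Against long genes without GSE1 and MAD1L1, which this list does not hold, the replicate 1 share was higher, at 0.871% against 0.487%. Of 39 genes listed as kinases, phosphatases and signalling scaffolds, 5 and 11 were enriched, led by PRKCB and PRKCA, with cluster shares of 0.796% and 11.6%. SND1, a Tudor domain nuclease, and CDKAL1, a tRNA-modifying enzyme, were also counted in that list.

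Of 41 membrane trafficking and cytoskeleton genes, 5 were enriched in replicate 1 and 13 in replicate 2, with 0 reproducible peaks and cluster shares of 0.2% and 10.6%. NBAS and COG5, described above, were not on this list. They had 6 and 7 enriched clusters in replicate 1, and NBAS held 6 reproducible peaks. Among 14 genes listed as RNA-binding proteins, 1 was enriched in replicate 1 and 5 in replicate 2, led by EIF4G3, with cluster shares of 0.39% and 12.8%. EXOC4, an exocyst subunit, was counted there, while SND1 was counted with the signalling scaffold genes. Among 9 ubiquitin pathway genes, 0 and 2 were enriched, with cluster shares of 0% and 11.3%. Left out of that list were MKLN1 and FAF1, with 5 and 4 enriched clusters in replicate 1 and 3 reproducible peaks each. Among 29 genes at common fragile sites, chromosomal regions prone to breaks under replication stress, 4 and 8 were enriched, led by MAD1L1 and IMMP2L, with cluster shares of 2.18% and 10.9%. MAD1L1 alone held 48 of the 57 enriched replicate 1 clusters of these genes, so the replicate 1 share rests mostly on 1 gene.

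Lists for other cell types held 99 neuronal and 22 muscle and matrix genes among the 773 long genes. Of 99 neuronal adhesion, channel and synapse genes, 85 had a cluster in replicate 1 and 50 in replicate 2, and 3 and 11 had an enriched one. Of their clusters, 0.301% were enriched in replicate 1 and 9.09% in replicate 2. They were led by NCAM2, a neural cell adhesion molecule, with 1 enriched of 284 clusters in replicate 1 and 9 of 86 in replicate 2, and by GABRG3, a GABA-A receptor subunit, with 1 of 409 and 6 of 93. The only reproducible peak of that list, in DLGAP1, a postsynaptic scaffold, had the lowest fold of the 72, at 3.01. Of 22 muscle and extracellular matrix genes, 0 had an enriched cluster in replicate 1 and 2 in replicate 2, with cluster shares of 0% and 9.84%.

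At the limits of the rule, the regions just inside and just outside differed little in replicate 1 and more in replicate 2. Genes of 300 to 330 kb, just inside the length limit, had 0.473% of clusters enriched in replicate 1 and 9.83% in replicate 2, against 0.532% and 14.8% in genes of 270 to 300 kb, just outside. Clusters 3 to 6 kb from an end had 0.788% and 13.9% enriched, against 0.782% and 6.09% within 3 kb of an end, on 761 and 194 clusters inside the limit and 1151 and 197 outside it.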

How the data were processed

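The deposited files are 3 peak lists of ADAR eCLIP in K562 cells. The deposited −log10 p-value and the deposited log2 fold of each cluster are the authors' significance and ratio of IP over input, and the −log10 p values are limited to 400. Tools named in the submitters' processing notes are cutadapt 1.9 and STAR 2.4.0i. The peak caller and the way replicates were combined are not given in the sources used here, nor do the labels say that the replicates were separate cultures. Coordinates are GRCh38, counted from 1.

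Gene spans came from RefSeq GRCh38.p14 (773 genes). Gene strand came from RefSeq promoters for 625 genes and, for 61, from at least 5 clusters with at least 80% on 1 strand. Whole reads were recovered from the folds on the assumption that 3 IP reads over 1 input read give the commonest fold (denominators to 200, tolerance 1e-07), and the multiple was fixed where an exact binomial or chi-square test gave the deposited p within 0.005. This held for 386 of 386 enriched replicate 1 clusters and 1252 of 1257 in replicate 2. Library totals are not known.

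Placement and read recovery were tested on simulated data. Python 3.11.15, numpy 2.4.6, pandas 2.3.3 and scipy 1.17.1 were used. Named genes were the 12 with the most reproducible peaks, the 10 per replicate with the most enriched clusters, the 5 highest reproducible folds and CUX1; exceptions are stated. The region rule, the 10 gene lists and the thresholds were chosen with earlier results of these data known. No tests were run, since each list gives 1 value per cluster. One reproducible locus is not reported here.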

Additional observations from a re-analysis of the deposited data

How the results depend on the processing

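A count was taken as unmoved within 1.5 times its value, a share or a difference of shares within the 95% binomial interval of the shares, and a position within 1 SD of the replicates. By these margins 32 of 59 alternatives left the value unmoved and 27 moved it, and no mean difference changed sign. The alternatives without GSE1 and MAD1L1, those merging peaks within 1 kb and those using only peaks enriched in both replicates were chosen after seeing the data. The count of 386 enriched replicate 1 clusters became 641 at log2 fold 2, 123 at log2 fold 4, 244 at −log10 p 5, 200 in genes over 500 kb and 213 without GSE1 and MAD1L1. The replicate 2 count of 1257 became 726 at log2 fold 4, 740 at −log10 p 5 and 508 in genes over 500 kb. The mean difference from all other clusters was −1.07 percentage points, −1.88 at log2 fold 2 and −0.388 at log2 fold 4, and single replicates gave −1.56 to −0.58. The mean difference from genes of 100 to 300 kb was −1.33 percentage points, −1.78 at log2 fold 2, −0.655 at log2 fold 4 and −0.95 with denominators of at least 2, and single replicates gave −2.51 to −0.142. The 72 reproducible peaks became 45 sites, 33 loci and 30 peaks in genes over 500 kb. The overlap share of replicate 1 was 39.6%, 63% with any replicate 2 cluster and 67.6% without GSE1 and MAD1L1; that of replicate 2 was 11.5%, 89.5% with any replicate 1 cluster and 7.58% at log2 fold 4. The share within 1 kb became 50.2% in replicate 1 and 37.1% in replicate 2 as sites, and 64.8% in replicate 1 without GSE1 and MAD1L1. Position medians of single replicates were 33.7 to 52.9%, with a mean of 43.3%. With 2 replicates, leaving out either cannot move the mean by more than 1 SD, so those alternatives count as unmoved by construction. The mean of 29.9% without GSE1 and MAD1L1 also fell within that wide margin. Yet the replicate 1 median of enriched clusters then went from 52.9% to 27.3%, from above that of other clusters to below it. Stricter thresholds and fewer genes leave fewer clusters by construction; otherwise the cause was not tested. No paired analysis was possible because each list already sets IP against input within 1 replicate. Depth limits replicate 2 most, where an enriched cluster can rest on 9 IP reads.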

Other observations

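MCTP1, a calcium-binding membrane protein gene of 581 kb on the minus strand of chromosome 5, had enriched clusters on the opposite strand at the same place in both replicates. In replicate 1 they lay between 94737925 and 94737982, with 95 IP reads over 1 input read at log2 fold 4.84 and 93 over 1 at 4.80. In replicate 2 they lay between 94737915 and 94737981, with 27 IP reads over 1 input read and log2 fold 5.61 in both clusters. These were the 2 enriched clusters of 9 in replicate 1 and the 2 of 2 in replicate 2, and none was in the reproducible list. KAZN and AGBL4 each had 1 enriched cluster on the opposite strand, in replicate 2 alone, with 37 IP reads over 2 input reads and 10 over 1.

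Some long genes were densely covered and not enriched. Of the 151 genes with at least 100 replicate 1 clusters, 95 had no enriched one in replicate 1, and 12 had none in either replicate. TRAPPC9, a trafficking complex subunit, had 300 clusters in replicate 1 and 27 in replicate 2, with highest log2 folds of 3.31 and 3.44 that missed the p threshold. TBC1D22A had 253 and 16, and RELN, the secreted protein reelin, had 204 and 9. These genes and those above were chosen after their values were seen.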
